A study of Mus musculus with 14 samples.

Results

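Monocyte and macrophage genes were examined in multipotent progenitors (MPP) of old and young mice. The group was made of 8 genes chosen by name as markers of these cells, Ms4a6c, Adgre1, Mpeg1, Ccr2, Ly86, Cx3cr1, Cd68 and Lyz2, out of 19155 genes measured. The choice was made with earlier results of these data known, so their counts beside those of all genes are a description. All 8 were on the array, each by a single probe set, and none was left out for a low value.

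Monocytes are made in the bone marrow from myeloid progenitors and leave it for the blood and tissues, where part of them become macrophages. Ccr2, Cx3cr1 and Adgre1 encode surface receptors: CCR2 binds CCL2 and lets monocytes leave the marrow, CX3CR1 binds fractalkine, and ADGRE1 is an adhesion receptor long used as a surface marker of mouse macrophages. Ly86 encodes MD-1, the partner of the Toll-like receptor relative CD180, and Ms4a6c encodes a membrane protein of the MS4A family. Mpeg1 (perforin-2, a pore-forming protein of the phagosome) and Lyz2 (lysozyme M, which cuts bacterial cell walls) encode effectors of phagocytosis and killing. Cd68 encodes a glycoprotein of the lysosome. Hematopoietic progenitors are not mature phagocytes, and RNA of such genes in progenitors is usually described as myeloid priming.

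The samples were 14 Affymetrix Mouse Gene ST 1.0 arrays of bone marrow cells double-sorted from wild-type C57BL/6 mice, 20000 cells to a sample. Old mice were 24 months of age and young mice 8 to 10 weeks. Both populations were sorted as Lin-/cKit+/Sca-1+ cells. MPP3, the myeloid-biased subset, were in addition Flk2- and CD150- but CD48+, and MPP4, the lymphoid-biased subset, were Flk2+. There were 3 arrays of old MPP3, 3 of young MPP3, 3 of old MPP4 and 5 of young MPP4, with no transgene or treatment in any group. A normalized value was read as the negative natural log of the share of probe sets ranked no lower on the same array. It states rank and was compared as a difference, never as a fold. Shares of probe sets given with a value were computed from that value and not counted. The steps between values implied 25307 ranked probe sets, against 22115 here, so these shares refer to the ranked ones. In bulk samples, fewer cells of a type and less RNA per cell cannot be told apart.

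Several facts about the arrays stood beside every age comparison. Xist lay above 1 on 4 young arrays (MPP3 replicate 1 and MPP4 replicates 1, 4 and 5) and on no old array. Of these 4, the Y-linked gene Eif2s3y was at 0.0221 on MPP3 replicate 1 and at 0.0261 on MPP4 replicate 1, but at 0.855 and 1.89 on MPP4 replicates 4 and 5, which thus had both signals. The dimmest 33.3% of probe sets also grouped the arrays, by clustering, into 2 sets with no counterpart in the labels: all 6 old arrays, 1 young MPP3 array and 2 young MPP4 arrays were in one, and the other 2 young MPP3 and 3 young MPP4 arrays in the other. The young arrays had also been deposited with an earlier series, and that series and young age cannot be told apart. Within old MPP3, replicate 3 lay apart from the other two: it had the lowest value of the 3 for 6 of the 8 genes and the highest for Cx3cr1.

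The promoters of the gene with the largest age difference on the deposited values and of the gene with motif matches are shown. They run from 250 bases before the start of transcription to 50 bases from it, taken from RefSeq on GRCm38.p6. The windows are chr19:11469118-11469417, plus strand, for Ms4a6c and chr11:69666121-69666420, minus strand, for Cd68. Capitals mark AP-1 motifs (TGANTCA) and a stretch with overlapping ETS-IRF composite motifs.
Ms4a6c: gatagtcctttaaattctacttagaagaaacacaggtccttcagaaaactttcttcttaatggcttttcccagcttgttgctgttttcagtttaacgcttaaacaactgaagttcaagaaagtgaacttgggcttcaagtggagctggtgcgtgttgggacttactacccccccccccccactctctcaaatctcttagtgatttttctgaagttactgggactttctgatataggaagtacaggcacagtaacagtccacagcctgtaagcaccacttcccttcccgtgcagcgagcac
Cd68: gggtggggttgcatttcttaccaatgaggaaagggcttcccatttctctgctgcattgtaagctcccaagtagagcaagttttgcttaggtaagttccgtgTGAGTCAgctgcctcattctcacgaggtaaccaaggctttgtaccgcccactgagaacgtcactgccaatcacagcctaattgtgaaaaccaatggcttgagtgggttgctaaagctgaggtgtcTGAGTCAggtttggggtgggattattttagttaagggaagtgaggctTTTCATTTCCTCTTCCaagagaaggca
RefSeq promoters were found for 7 of the 8 genes, Adgre1 being the exception. They were searched on both strands for a PU.1-type ETS motif (GAGGAAG), ETS-IRF composites (GGAA, then 2 or 3 bases of any kind, then GAAA), a C/EBP motif (TTGCNNAAT) and AP-1, and on the gene's strand for TATAAA. Only the Cd68 window held any of them. AP-1 motifs lay at -149 to -143 and -24 to -18, counting the start base as 0, and the composites lay on the minus strand at 23 to 32 and 28 to 38, sharing bases. Of 32851 promoters of this length, 7.81% held the AP-1 motif, and 2.72% and 2.76% held the 2 composites. Of the motifs found in none of the 7, GAGGAAG was in 13.6% of all promoters, TTGCNNAAT in 2.4% and TATAAA in 8.32%. A match is a description of letters and not of binding.

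The 8 genes lay in the lower, middle and upper parts of the range of mean values, none above percentile 83.9. By its mean over all arrays Adgre1 stood at percentile 11.1 of the genes measured, Ccr2 at 36.1, Ly86 at 41.4, Mpeg1 at 66.0, Cx3cr1 at 72.7, Cd68 at 77.0, Ms4a6c at 81.9 and Lyz2 at 83.9, an order that depends on each probe set's own brightness. Adgre1 was low on every array: between 80.8% and 91.6% of probe sets had a value at or above it. Csf1r, the receptor of the monocyte growth factor CSF1, was picked for this check after its values were seen. On average it lay below the array medians (0.662 to 0.675) in each group. It was at 0.486 ± 0.213 in old MPP3, 0.399 ± 0.0145 in young MPP3, 0.465 ± 0.0703 in old MPP4 and 0.424 ± 0.0917 in young MPP4 (SD, n = 3, 3, 3 and 5). Some other monocyte genes lay above the medians. Group means ran from 3.28 to 3.42 for Cst3 and from 2.59 to 2.98 for Tyrobp.

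**Figure D1:**
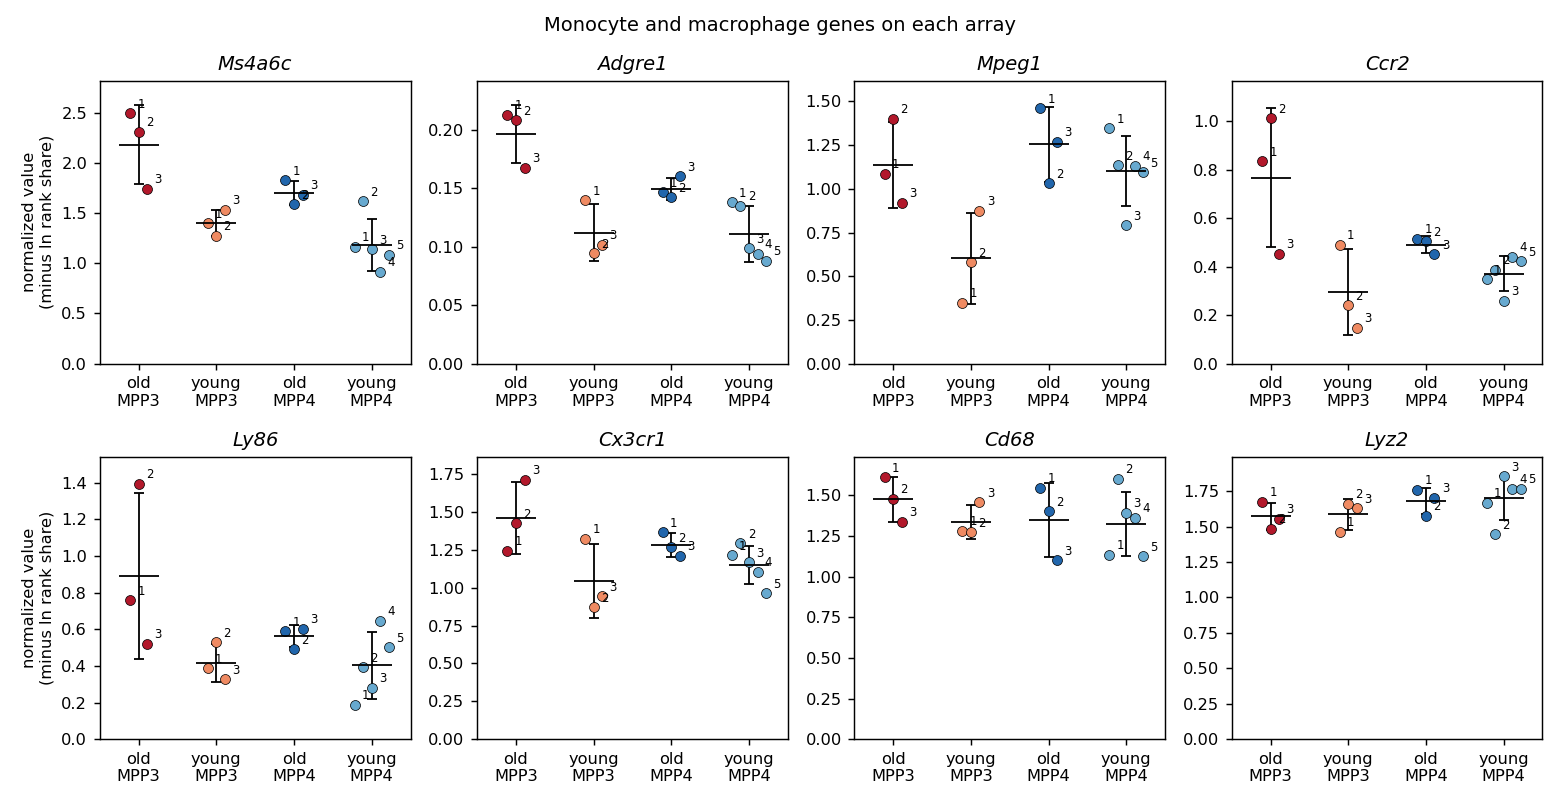
Normalized value (vertical axis, minus the natural log of the share of probe sets at or above) of each of the 8 genes on each array, in old MPP3, young MPP3, old MPP4 and young MPP4. Points are arrays with their replicate numbers, bars are group means and error bars are SD. The old MPP3 arrays lay above all young MPP3 arrays for Ms4a6c, Adgre1 and Mpeg1, and the groups overlapped for Lyz2.

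To ask how these genes stood with age in myeloid-biased progenitors, old MPP3 were compared with young MPP3. The mean was higher in old MPP3 for 7 of the 8 genes, against 50.1% of all genes, and the median difference was 0.444 over the 8 genes against 0.000183 over all genes. No gene passed the threshold: 0 of the 8 and 0 of 19155 genes (0%) were called by limma at an adjusted p of 0.05. At an unadjusted p under 0.05, 4 of the 8 were higher, against 3.44% of all genes, and 0 were lower, against 4.75%. The groups did not overlap, with old higher, for 3 of the 8, against 6.14% of all genes, and with old lower for 0, against 8.04%.

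Ms4a6c had the largest difference on the deposited values. The order depended on the scale. With ranks mapped to a normal distribution (normal scores), Ccr2 (0.816), Mpeg1 (0.653) and Ly86 (0.631) had larger differences than Ms4a6c (0.599). Its values were 2.49, 2.31 and 1.74 in old MPP3, against 1.40, 1.27 and 1.53 in young MPP3. On the highest of these arrays 8.28% of probe sets had a value at or above it. All 3 old arrays lay above all 3 young ones. The difference was 0.780 ± 0.208 (SE; unadjusted p = 0.0119, adjusted p = 0.511, limma). Over all 14 arrays the order of group means was old MPP3, old MPP4, young MPP3 and young MPP4, and of neighbours in it only old MPP4 and young MPP3 did not overlap.

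Among the receptors, Ccr2 was at 0.836, 1.01 and 0.454 in old MPP3 and at 0.492, 0.242 and 0.148 in young MPP3. Old MPP3 replicate 3 fell within the young range, and the difference was 0.474 ± 0.170 (SE; unadjusted p = 0.0362, adjusted p = 0.576). Cx3cr1 was at 1.24, 1.42 and 1.71 in old MPP3 and at 1.32, 0.869 and 0.943 in young MPP3. Here replicate 3 was the highest of the old arrays, the groups overlapped through young replicate 1, and the difference was 0.414 ± 0.172 (SE; adjusted p = 0.618). Adgre1 was at 0.213, 0.209 and 0.168 in old MPP3 and at 0.140, 0.0945 and 0.102 in young MPP3. The groups did not overlap, but the difference of 0.0845 ± 0.0279 (SE; adjusted p = 0.559) lay in the lowest part of the scale, where most probe sets had a value at or above that of Adgre1.

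For Ly86 the values were 0.758, 1.39 and 0.521 in old MPP3 and 0.389, 0.529 and 0.328 in young MPP3. The difference of 0.475 ± 0.233 (SE; adjusted p = 0.660) rested to a large part on old MPP3 replicate 2, without which it was 0.224. Mpeg1 was at 1.09, 1.40 and 0.921 in old MPP3 and at 0.350, 0.581 and 0.874 in young MPP3. The groups of Mpeg1 did not overlap, the gap between them was narrow, and the difference was 0.534 ± 0.181 (SE; unadjusted p = 0.0298, adjusted p = 0.568).

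The other 2 genes differed little. Cd68 was at 1.61, 1.48 and 1.34 in old MPP3 and at 1.28, 1.27 and 1.46 in young MPP3, a difference of 0.138 with a 95% interval from -0.0866 to 0.364. Lyz2 was at 1.68, 1.48 and 1.55 in old MPP3 and at 1.46, 1.66 and 1.63 in young MPP3. Its difference was -0.0137 with a 95% interval from -0.204 to 0.177, so that a difference of the size seen for Ms4a6c lay outside it. The groups overlapped for both genes. Lyz1, a close paralog of Lyz2, averaged 1.25 ± 0.196 in old MPP3 and 1.19 ± 0.338 in young MPP3 (SD, n = 3 each; chosen after its values were seen). Hybridization of RNA from one paralog to the probes of another was not tested for Lyz2, Ccr2 or Ms4a6c, which are uncertain to that extent.

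Counts over the 8 genes were also taken without arrays that stood apart. Without old MPP3 replicate 3 the mean was higher in old MPP3 for 7 genes and the groups did not overlap for 6, against 12.7% of all genes. Without old MPP3 replicate 2 the mean was higher for 8 and the groups did not overlap for 3, against 10.4% of all genes, and the median difference over the 8 genes was 0.288 in place of 0.444. Without young MPP3 replicate 1, the array with high Xist, the counts were 7 and 5, with 21.8% of all genes without overlap. Against that array alone, the median difference was 0.235. It was the single young MPP3 array of the set that held the old arrays, and the differences from it were 0.785 for Ms4a6c, 0.786 for Mpeg1, 0.502 for Ly86, 0.276 for Ccr2, 0.136 for Cx3cr1 and 0.0566 for Adgre1. The part of the array sets in these differences was not tested further.

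Old MPP4 were compared with young MPP4 to see the same genes with age in lymphoid-biased progenitors. The mean was again higher in old cells for 7 of the 8 genes, against 49.8% of all genes, with a median difference of 0.126 against -0.000171 over all genes. Within the array set that held the old arrays (3 old and 2 young) that median was 0.0761. By limma 0 of the 8 and 0 of 19155 genes (0%) passed. At an unadjusted p under 0.05, 2 of the 8 were higher, Ms4a6c and Ccr2, against 4.5% of all genes, and 0 were lower, against 5.27%. Old and young MPP4 did not overlap for 2 of the 8, Adgre1 and Ccr2, against 3.28% of all genes, and with old lower for 0, against 4.01%.

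Ms4a6c was at 1.82, 1.59 and 1.68 in old MPP4, against 1.16, 1.61, 1.14, 0.917 and 1.08 in young MPP4. The single overlap came from young MPP4 replicate 2, and the difference was 0.514 ± 0.148 (SE; unadjusted p = 0.00954, adjusted p = 0.392). Without the 3 young arrays with high Xist the difference was 0.321. Within the array set that held the old arrays it was 0.308.

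Ccr2 was at 0.517, 0.505 and 0.451 in old MPP4, against 0.349, 0.387, 0.261, 0.442 and 0.423 in young MPP4. Every old array lay above every young one, by as little as 0.451 against 0.442, and the difference was 0.119 ± 0.0432 (SE; unadjusted p = 0.0272, adjusted p = 0.467). Adgre1 was at 0.147, 0.143 and 0.161 in old MPP4, against 0.138, 0.135, 0.0987, 0.0942 and 0.0882 in young MPP4. The 2 young arrays that came nearest to the old ones were those of the same array set, and against them alone the difference was 0.0134 in place of 0.0391 ± 0.0192 (SE; adjusted p = 0.549). Over both populations the 3 young arrays of that set lay between 0.135 and 0.140 for Adgre1, and the 5 of the other set between 0.0882 and 0.102. For Cx3cr1 those ranges were 1.21 to 1.32 and 0.869 to 1.17, so for both genes the young arrays divided by set without overlap. The share of all genes that divided in this way was not computed. The sets were defined on the dimmest probe sets, which by its mean include that of Adgre1 but not that of Cx3cr1.

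The other 5 genes overlapped between the ages. Cx3cr1 was at 1.36, 1.27 and 1.21 in old MPP4 and at 1.21, 1.29, 1.17, 1.10 and 0.963 in young MPP4, a difference of 0.133 ± 0.0742 (SE; adjusted p = 0.593). Ly86 was at 0.590, 0.493 and 0.604 in old MPP4 and spread more widely in young MPP4, at 0.189, 0.394, 0.282, 0.647 and 0.502, with a difference of 0.159 ± 0.101 (SE; adjusted p = 0.640). Mpeg1 was at 1.46, 1.03 and 1.27 in old MPP4 and at 1.35, 1.14, 0.792, 1.13 and 1.09 in young MPP4. Its difference of 0.154 ± 0.136 (SE) was close to its own error. Cd68 was at 1.55, 1.40 and 1.10 in old MPP4 and at 1.14, 1.60, 1.39, 1.36 and 1.12 in young MPP4, with a 95% interval of the difference from -0.299 to 0.351. Lyz2 was at 1.76, 1.58 and 1.70 in old MPP4 and at 1.67, 1.45, 1.86, 1.77 and 1.77 in young MPP4, with an interval from -0.239 to 0.197. Neither Cd68 nor Lyz2 had a difference beyond its spread.

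**Figure D2:**
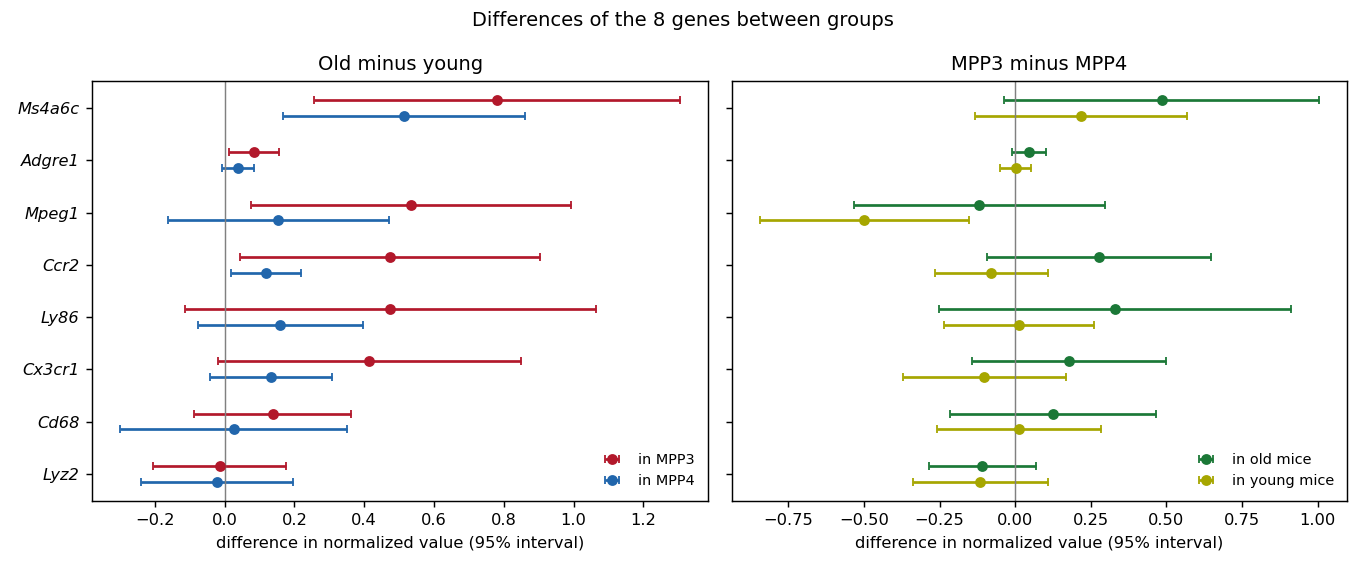
Difference in normalized value (horizontal axis) of each of the 8 genes in the comparisons of age and of population, with 95% intervals from limma. Intervals of Ms4a6c, Adgre1, Mpeg1 and Ccr2 lay above 0 for old minus young MPP3, with no gene past the adjusted threshold.

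Whether age differed in its effect between the populations was tested as the age difference in MPP3 minus that in MPP4, over all 14 arrays. All 8 values were positive, against 51.3% of all genes, and 0 of the 8 and 0 of 19155 genes (0%) passed by limma, with 0 of the 8 at an unadjusted p under 0.05, against 2.83% of all genes with a positive value and 3.44% with a negative one. Ccr2 came nearest, at 0.355 ± 0.163 (SE; unadjusted p = 0.0517, adjusted p = 0.807). Mpeg1 was at 0.380 ± 0.232, Ly86 at 0.316 ± 0.245, Cx3cr1 at 0.281 ± 0.180 and Ms4a6c at 0.266 ± 0.260 (SE). Leaving out 1 array took Ly86 to as little as 0.0646 and Mpeg1 to 0.247 (both without old MPP3 replicate 2), Ms4a6c to 0.111 (without old MPP3 replicate 1) and Cx3cr1 to 0.155 (without old MPP3 replicate 3). Ccr2 was at 0.233 without old MPP3 replicate 2. The errors were large enough that an age difference of one size in both populations could not be told from a larger one in MPP3. Cd68 (0.112) and Lyz2 (0.00712) were smaller. Adgre1 was at 0.0454 ± 0.0296 (SE, unadjusted p = 0.153 by limma), in the lowest part of the scale. Its unadjusted p was below those of Ly86 (0.223) and Ms4a6c (0.328).

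The populations were then set against each other within each age, since MPP3 are the myeloid-biased subset. In old mice the mean was higher in MPP3 than in MPP4 for 6 of the 8 genes, against 51.7% of all genes, with 0 of the 8 and 0 of 19155 genes (0%) past the threshold by limma and 0 of the 8 at an unadjusted p under 0.05, against 3.64% of all genes higher and 6.19% lower. Ms4a6c averaged 2.18 ± 0.390 in old MPP3 and 1.70 ± 0.119 in old MPP4 (SD, n = 3 each), and the difference was 0.484 ± 0.206 (SE; adjusted p = 0.544). Adgre1 alone of the 8 did not overlap, with MPP3 higher, against 7.6% of all genes higher and 9.03% lower without overlap. Adgre1 was at 0.197 ± 0.0250 in old MPP3 and 0.15 ± 0.00943 in old MPP4 (SD, n = 3 each). Ly86, Ccr2, Cx3cr1 and Cd68 had differences of 0.328, 0.277, 0.179 and 0.126. Mpeg1 and Lyz2 ran the other way, at -0.118 and -0.109. Single arrays moved these values by more than 1.5 times. Without old MPP3 replicate 2, Ly86 was at 0.0772 and Ccr2 at 0.154. Without old MPP3 replicate 3, Cx3cr1 was at 0.0529 and Mpeg1 at -0.0108. Without old MPP4 replicate 3, Cd68 was at 0.00162. For Ms4a6c, Ccr2 and Ly86 the SD in old MPP3 (0.390, 0.286 and 0.451) was above that in old MPP4 (0.119, 0.0349 and 0.0605), and old MPP3 replicate 3 was the lowest of its group for all of these. For Ccr2 that array, at 0.454, lay beside the lowest old MPP4 array, at 0.451.

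In young mice 4 of the 8 genes had the higher mean in MPP3, against 50.1% of all genes, and 0 of the 8 were called, against 0.131% of all genes (25 genes, 0.0626% higher and 0.0679% lower in MPP3). Mpeg1 was the single one of the 8 at an unadjusted p under 0.05, against 5.48% of all genes lower and 5.53% higher. For 0 of the 8 were the arrays without overlap, against 3.72% of all genes higher and 3.74% lower. It averaged 0.601 ± 0.263 in young MPP3 (SD, n = 3) and 1.10 ± 0.199 in young MPP4 (SD, n = 5), and the difference was -0.498 ± 0.148 (SE; unadjusted p = 0.0110, adjusted p = 0.280). The arrays overlapped, since young MPP3 replicate 3 was at 0.874 and young MPP4 replicate 3 at 0.792. Lower means without a test passed were also seen in young MPP3 for Lyz2 (-0.116), Cx3cr1 (-0.102) and Ccr2 (-0.0782). Ms4a6c had a difference of 0.218 ± 0.149 (SE), and those of Adgre1, Ly86 and Cd68 were 0.00120, 0.0126 and 0.0137.

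Seen by gene over the groups, 7 of the 8 genes had both old means above both young means, Lyz2 being the exception. For Cd68 the old MPP4 mean (1.35) and the young MPP3 mean (1.34) hardly differed. Only Adgre1 kept every old array, from 0.143 to 0.213, above every young array, from 0.0882 to 0.140. The share of all genes with either pattern was not computed, so neither count can be judged against it. For Mpeg1 the order was old MPP4, old MPP3, young MPP4 and young MPP3, with each neighbour overlapping the next. Neighbouring groups in the order of means also overlapped throughout for Ly86, Cx3cr1, Cd68 and Lyz2.

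The 8 genes did not move as a single block from array to array. Over all 14 arrays the 28 pairs had a median Pearson r of 0.355, from -0.446 to 0.907, and 22 pairs were positive. With each group's mean removed the median was 0.0842, from -0.549 to 0.720, and 17 pairs were positive. The arrays share groups and sets, so these values are a description. Ms4a6c and Adgre1 had the highest r, 0.907, and 0.672 with group means removed. Ccr2 and Ly86 were at 0.854 and 0.720. Lyz2 had a negative r with 6 of the other 7 genes, Mpeg1 being the exception at 0.175.

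**Figure D3:**
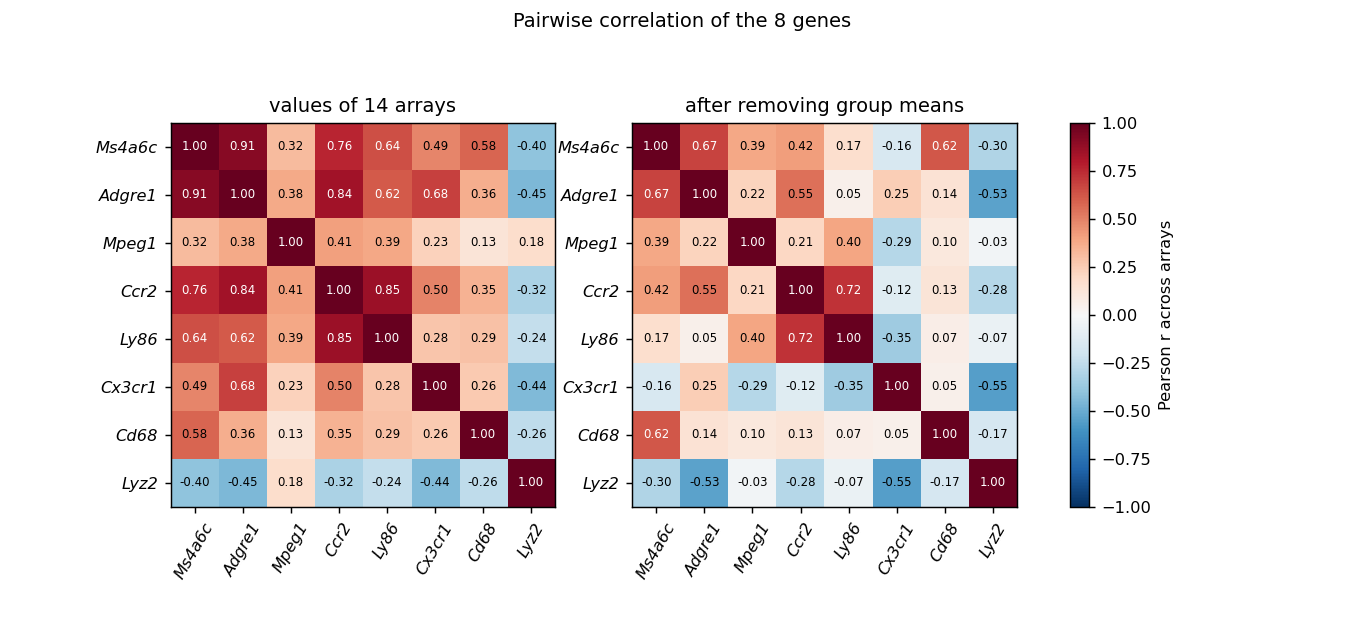
Pearson r between the 8 genes over 14 arrays, on the values and with group means removed (colour scale from -1 to 1). The highest value over all arrays was that of Ms4a6c and Adgre1 (0.907), and with group means removed that of Ccr2 and Ly86 (0.720). Values of Lyz2 were negative but for Mpeg1 over all arrays (0.175).

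By likeness of pattern over the 14 arrays, among 9168 genes with a mean of at least 0.7, the genes nearest to the mean of the 8 were Kcnip3 (r = 0.912), Mfsd1 (r = 0.906), Ifngr1 (r = 0.898) and Pigk (r = 0.898). Ifngr1 encodes a chain of the interferon-gamma receptor, and Kcnip3 a calcium-binding protein. Kcnip3 averaged 1.27 ± 0.204 in old MPP3, 0.653 ± 0.195 in young MPP3, 0.900 ± 0.123 in old MPP4 and 0.761 ± 0.0431 in young MPP4 (SD, n = 3, 3, 3 and 5). For single genes, Serpinb1a, an inhibitor of granule serine proteases, was nearest to Ms4a6c (r = 0.948). Hk3, a hexokinase, was nearest to Ccr2 (r = 0.929) and Atp6ap2, an accessory protein of the vacuolar proton pump, to Ly86 (r = 0.924). With so many genes and 14 arrays such values are high for some genes by selection, and they say nothing of shared control.

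Lists of related genes were read beside the 8, by counts or by mean values, and no list had a gene called with age. The share of all genes to set beside each count of higher means was 50.1% for MPP3 and 49.8% for MPP4. Of 29 other monocyte genes, 24 had a higher mean in old than in young MPP3, with a median difference of 0.0894, and 18 in old than in young MPP4, with a median of 0.0267. Fcgr3, an Fc receptor for IgG, averaged 1.49 ± 0.318 in old MPP3 and 0.779 ± 0.0906 in young MPP3 (SD, n = 3 each), a difference of 0.708 ± 0.167 (SE; adjusted p = 0.50). In MPP4 it averaged 0.495 ± 0.0379 in old and 0.496 ± 0.0309 in young cells. Ctss and Nr4a1, picked after their values were seen, were lower in old MPP3 without overlap, with differences of -0.519 and -0.476. Cybb, the membrane subunit of the phagocyte NADPH oxidase, was called between the populations of young mice, at 0.976 ± 0.108 in young MPP3 (SD, n = 3) and 0.196 ± 0.0306 in young MPP4 (SD, n = 5), a difference of 0.780 ± 0.0471 (SE; adjusted p = 0.00209). In that comparison 0 genes were called by limma with the replicate block, without the 4 arrays with high Xist, or within the array set of the old arrays. The difference of Cybb was then 0.761 (adjusted p = 0.436), 0.807 (adjusted p = 0.270, 2 against 2 arrays) and 0.683 (adjusted p = 0.620, 1 against 2 arrays). In old mice it averaged 1.57 ± 0.679 in MPP3 and 0.308 ± 0.0724 in MPP4. None of the 8 genes showed such a split between the populations.

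Genes of resident tissue macrophages gave other counts. Of 20, 9 had a higher mean in old than in young MPP3, with a median difference of -0.00808, and 13 in old than in young MPP4, with a median of 0.020. Their mean value lay between 0.540 and 0.616 on the old MPP3 arrays and between 0.527 and 0.578 on the young ones. Vcam1, an adhesion molecule of stroma and of marrow macrophages, was apart from the list, at 1.16 ± 0.497 in old MPP3 and 0.485 ± 0.107 in young MPP3 (SD, n = 3 each; adjusted p = 0.594). Cd163, a scavenger receptor of hemoglobin complexes, averaged 0.409 ± 0.113 in old MPP3 and 0.479 ± 0.113 in young MPP3.

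Among 19 ligands, partners and paralogs of the 8 genes, 14 had a higher mean in old than in young MPP3, with a median difference of 0.0197, and 11 in old than in young MPP4, with a median of 0.00593. The receptor partner of Ly86, Cd180, averaged 1.53 ± 0.197 in old MPP3 and 1.69 ± 0.132 in young MPP3, and 2.21 ± 0.111 in old MPP4 and 1.88 ± 0.347 in young MPP4 (SD, n = 3, 3, 3 and 5). Its direction in MPP3 was thus opposite to that of Ly86, neither having passed the test. Adgre5 (CD97), a relative of Adgre1, differed by 0.722 ± 0.106 between old MPP3 and old MPP4 (SE; adjusted p = 0.222) and by -0.176 between old and young MPP3. Of 15 regulators of monocytes and macrophages, 8 had a higher mean in old than in young MPP3 and 7 in old than in young MPP4. Both counts were near the shares of all genes (50.1% and 49.8%). Cebpa, a factor of myeloid commitment, averaged 1.81 ± 0.205 in old MPP3 and 1.5 ± 0.205 in young MPP3 (SD, n = 3 each; adjusted p = 0.652). Klf4, of the same list and picked after its values were seen, went the other way without overlap. Its difference was -0.198 ± 0.0794 (SE; adjusted p = 0.613, limma).

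Markers of some other cells moved with the groups too. Erythroid genes, T and NK cell genes, and stromal and endothelial genes moved both ways with age in MPP3. The 11 measured granule genes of myeloid progenitors all had a higher mean in old than in young MPP3, with a median difference of 0.968, and their mean value was 2.92, 3.41 and 2.23 on the old arrays against 1.84, 2.50 and 2.07 on the young ones. In MPP4 9 of 11 had a higher mean in old cells, with a median of 0.0871. Mast cell, basophil and eosinophil genes had a higher mean in old MPP3 for 8 of 10, at 1.57, 1.45 and 0.774 on the old arrays against 0.656, 0.898 and 0.862 on the young ones. Both lists were lowest among the old arrays on replicate 3, as most of the 8 genes were, and the B lineage list was highest there, at 1.16 against 0.598 and 0.591. With age, 2 of the 11 measured B lineage genes had a higher mean in old than in young MPP3, with a median difference of -0.117, and the list was at 1.09, 1.09 and 0.588 on the young arrays. Mature neutrophil genes lay between 0.729 and 1.01 on old MPP3 arrays and between 0.560 and 0.705 on young ones. Genes of this list moved both ways in old minus young MPP3. S100a8 was at 1.34, S100a9 at 0.626 and Ngp at 0.606, but Padi4 at -0.117. Dendritic cell genes had a higher mean in old than in young MPP4 for 11 of 15, with a median of 0.0790, and in old than in young MPP3 for 9 of 15, with a median of 0.00241. The part of any of these lists in the values of the 8 genes was not tested.

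**Figure D4:**
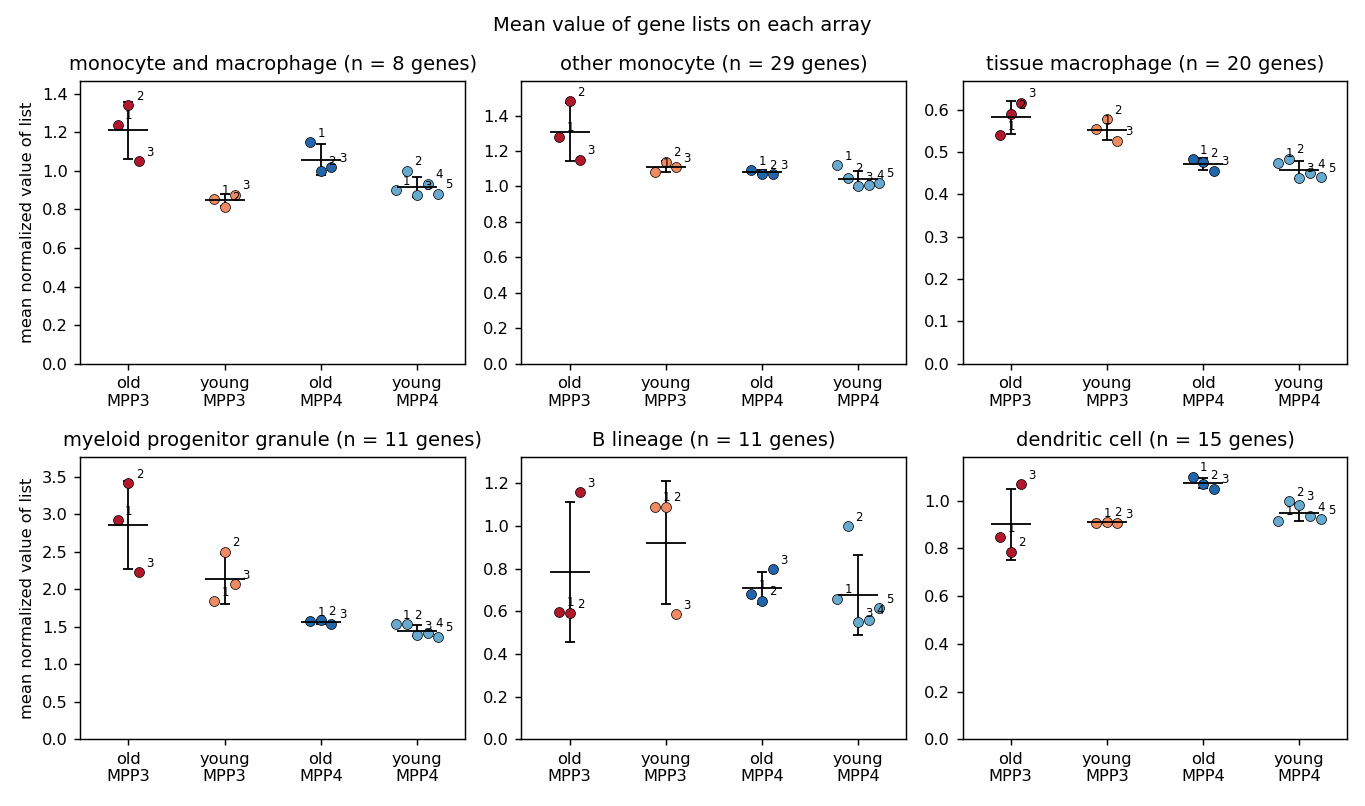
Mean normalized value (vertical axis) on each array of the 8 genes and of some of the gene lists, with groups side by side. The lists shown are other monocyte, tissue macrophage, myeloid progenitor granule, B lineage and dendritic cell genes. Replicate numbers stand beside the points, the group mean is a bar and the SD an error bar. Old MPP3 lay above young MPP3 for the mean of the 8 genes (1.05 to 1.34 against 0.815 to 0.877), and the tissue macrophage list overlapped (0.540 to 0.616 against 0.527 to 0.578).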

How the data were processed

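Gene expression was measured in MPP3 and MPP4 of old and young mice. The deposited value is a score: the authors ran RMA (no version given) and then mapped the quantiles of every array to an exponential distribution. No further scaling was done. Depth does not apply to arrays, and the number of arrays limits the precision.

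Of 22115 probe sets, those not listed in the platform annotation (2135) or with several symbols (744) were left out. Where several probe sets measured a gene (76 genes), that of highest mean stood for it, which left 19155 genes. Linear models were fitted in limma 3.58.1 (R 4.3.3) with lmFit and eBayes, two-sided, and p-values were adjusted by Benjamini-Hochberg over the 19155 genes, with 0.05 as threshold. Each comparison used its own groups, and the difference of age differences used all 14 arrays. The study's SAM test was not run. The procedure was tested on simulated data. The study's methods call the replicates of a population independent and biological, but neither they nor the labels tie an array to an animal, so p-values measure the spread between these samples.

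The members and lists were chosen with earlier results of these data known. Of each list, the 4 genes with the largest moderated statistic between old MPP3 and old MPP4 and any gene called could be named, with the genes nearest in pattern. Deviations of same-numbered arrays from their group means correlated between -0.192 and 0.407 over the comparisons. Alternatives were 1 fit of all groups, the replicate block, normal scores, a filter on dim genes, every probe set, trend and robust moderation, array weights, leaving out each array, leaving out arrays with high Xist, and 1 array set. Counts over the members on subsets of the arrays, and Cybb under 3 of the settings, were added after seeing the data.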

Additional observations from a re-analysis of the deposited data

How the results depend on the processing

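No member was called in any comparison under any setting but array weights, which called Ms4a6c in old minus young MPP4 (1 member; 0.602, adjusted p = 0.0497) and Ccr2 in the age difference in MPP3 minus that in MPP4 (1 member; 0.528, adjusted p = 0.0272). Over the settings other than leaving out single arrays, the adjusted p ranged from 0.0497 to 0.739 for the first and from 0.0272 to 1.000 for the second. The cause was not tested. The filter on dim genes removed Adgre1.

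Several small differences changed sign. For old minus young MPP3, Lyz2 was 0.00259 with array weights and 0.108 within the array set of the old arrays, where the lone young MPP3 array was assumed to vary like the others. For old minus young MPP4, Cd68 was -0.0276 with the replicate block, -0.148 without arrays with high Xist and -0.0198 within the set, and Lyz2 was 0.0234, 0.0293 and 0.123. For MPP3 minus MPP4 in young mice, Adgre1 was -0.0119 with the block and -0.0188 without high Xist. Cd68 there was -0.0401 with the block, -0.133 without high Xist and -0.0871 within the set. Ly86 was -0.0878 with array weights, and within the set Ccr2 was 0.123 and Cx3cr1 0.0720. Lyz2 in the difference of age differences was -0.0371, -0.104 and -0.0154 with the block, without high Xist and within the set.

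Leaving out single arrays gave 0 called members in each comparison. Signs changed for Lyz2 in MPP3 with age (-0.0743 to 0.0300) and in MPP4 with age (-0.0847 to 0.0305), for Cd68 in MPP4 with age (-0.0719 to 0.15), between young populations for Adgre1 (-0.0127 to 0.010), Ly86 (-0.0442 to 0.0737) and Cd68 (-0.0462 to 0.0835), and in the difference of age differences for Lyz2 (-0.0535 to 0.0710) and Cd68 (-0.0120 to 0.210).

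The labels do not say whether replicate numbers pair the arrays, and the main fits did not pair them. Replicate 1 of young MPP3 and of young MPP4 both had high Xist and low Eif2s3y. Their deviations from the group means correlated at 0.407. The replicate block called 0 members and 0 of all genes in each comparison, against 25 genes without it between the young populations, and changed no call of a member. Counts over all genes moved most with array weights: 304 in old minus young MPP4, 1808 between the young populations and 574 in the difference of age differences. A single fit of all groups called 9 genes in old minus young MPP3, 1 in old minus young MPP4 and 27 between the old populations, against 0 in the separate fits. Between the young populations 51 genes were called on normal scores, 59 with the filter on dim genes, 48 with trend and robust moderation, 0 without high Xist, 0 within the set, and 8 to 108 without single arrays. Elsewhere other settings called at most 2 genes and leaving out single arrays at most 15.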
